A study of Bos taurus with 15 samples.

Results

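ISG15 is a small ubiquitin-like protein, and UBA7 and USP18 are enzymes that attach it to and remove it from other proteins. These 3 genes were described in the caruncular endometrium of cows across 4 phases of the estrous cycle and early pregnancy. Each gene had 1 probe among the 15208 probes other than controls on the array, so the 3 members, of 6779 genes with a symbol, were measured by 3 probes. The probe of ISG15 carried that symbol in the array files. The probe of USP18 was listed as a putative ubiquitin-specific protease under an older gene name, and it was assigned through its transcript in the RefSeq gene table. The probe of UBA7 was listed as ubiquitin-activating enzyme E1-like (UBE1L), an older name of UBA7, and it was designed on an expressed sequence tag.

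The cows were Japanese Black, and labeled RNA of each was measured on its own one-color Agilent array of bovine probes, with 15 arrays in all. The non-pregnant groups NP15 and NP18 came from days 15 and 18 of the estrous cycle, with 4 arrays each. The pregnant groups P15 and P18 came from days 15 and 18 of gestation, with 3 and 4 arrays, and the methods give 4 animals for each stage. The day of insemination counted as day 1, and a cow was taken as pregnant when trophoblast was seen in the uterine horn. The sources used here give no age of the cows. The markers fixed for smooth muscle, stroma, and epithelium were present. In every array, all 5 smooth muscle probes, all 8 stromal probes, and at least 7 of 10 epithelial probes were well above background. For endothelium, 4 of 7 probes were so in all P18 arrays, against 7 in all NP15 arrays. For leukocytes, 19 of 30 probes were so in all P18 arrays, against 23 in all NP15 arrays. The share of all probes well above background was also lower in P18, at 65.6 to 73.9% per array, against 78.4 to 85.1% in NP15. These counts alone therefore do not show fewer cells of a type.

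In general, type I interferons bind a receptor made of IFNAR1 and IFNAR2. The signal then passes to the transcription factor complex ISGF3, which contains IRF9 and switches on interferon-stimulated genes, including all 3 members. UBA7 activates ISG15, an E2 enzyme (UBE2L6) receives it, and an E3 ligase (HERC5 in humans) transfers it to target proteins. USP18 cuts ISG15 from these proteins and, through IFNAR2, also dampens signaling by the receptor. In ruminants, the trophoblast secretes interferon tau at the time of maternal recognition of pregnancy, and ISG15 in the endometrium is a well-known marker of its action.

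The probe sequences of USP18 and UBA7 are shown because every value given for these genes, which the array files list under older names, rests on them. The probes of all 3 members are 60-mers, and no other probe on the array had the same sequence as any of them.

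USP18: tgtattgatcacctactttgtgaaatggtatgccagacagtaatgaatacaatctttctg

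UBA7: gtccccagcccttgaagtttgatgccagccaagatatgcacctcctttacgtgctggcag

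The probes of ISG15 and UBA7 had a GC content of 55% and that of USP18 had 35%, which are the 95th and 5th percentiles of all probes (median of 43.3%). Probes that differ in this way can differ in brightness, so levels were compared between arrays for the same probe and not between the probes. In the order of protein-coding genes in the RefSeq table of ARS-UCD2.0, ISG15 lies between AGRN and HES4, USP18 between CARD10 and ALG10, and UBA7 between TRAIP and INKA1. Coordinates are not given, because the build of the array design is not given in the sources used here. All 3 probes were well above background in all 15 arrays, and none was saturated or flagged in any array. The lowest signal of a member was 97.4 times the lowest signal well above background of its array for ISG15, 6.44 times for USP18, and 3.37 times for UBA7.

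Each signal is given below as a multiple of the median signal of its array, which is how the methods of the study scaled the arrays. The array medians themselves were from 315 to 409 in NP15, 545 to 686 in P15, 790 to 838 in NP18, and 407 to 563 in P18. Arrays of different groups never shared a slide or a day of scanning. NP15 was spread over 3 scan days, whereas P15, NP18, and P18 had 1 each. In every comparison between groups, the effects of slide and scanning therefore cannot be told apart from those of pregnancy or day. Limma was fitted to 13164 probes, those that 3 or more arrays showed well above background. A call needed an adjusted p (Benjamini-Hochberg) below 0.05 together with a difference of more than 2-fold. In whole tissue, fewer cells of a type and less RNA per cell cannot be told apart.

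ISG15, the modifier itself, was from 5.77 to 17.0 array medians in both non-pregnant groups and in 1 pregnant cow of day 15. It was much higher in every pregnant cow of day 18. Its signal in NP15 was 11.9, 12.2, 12.7, and 5.77 array medians in replicates 1 to 4. In P15 it was 12.6, 103, and 25.0 in replicates 1 to 3. Replicate 1 of P15 lay within the range of NP15, and replicate 2 was 8.09 times the highest NP15 array. In NP18 the signal was 17.0, 14.6, 8.71, and 8.41, and in P18 it was 626, 689, 834, and 416. The lowest P18 array was 24.4 times the highest NP18 array and 4.05 times the highest P15 array.

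USP18, the protease that removes ISG15, had the same outline. Its signal in NP15 was 1.15, 1.41, 1.27, and 0.306 array medians, and in P15 it was 1.53, 9.52, and 1.92. All 3 P15 arrays lay above all 4 NP15 arrays, but replicate 1 exceeded the highest NP15 array by a factor of only 1.08. In NP18 the signal was 1.76, 2.52, 1.59, and 0.744, and in P18 it was 54.4, 58.6, 57.8, and 29.1. The lowest P18 array was 11.5 times the highest NP18 array. Replicate 2 was the highest of P15 and replicate 4 the lowest of NP15, of NP18, and of P18 for both ISG15 and USP18.

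UBA7, the activating enzyme that starts conjugation, had a different outline. Its signal in NP15 was 0.574, 0.714, 3.01, and 0.599 array medians, so replicate 3 was 4.21 times the next array of its group and was the highest of all 15. In P15 it was 0.762, 1.07, and 0.768. In NP18 it was 0.331, 0.370, 0.551, and 0.319, and in P18 it was 1.45, 0.832, 0.606, and 1.02. In array medians, all 4 P18 arrays lay above all 4 NP18 arrays, with a factor of only 1.1 between the nearest arrays of the groups.

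**Figure D1:**
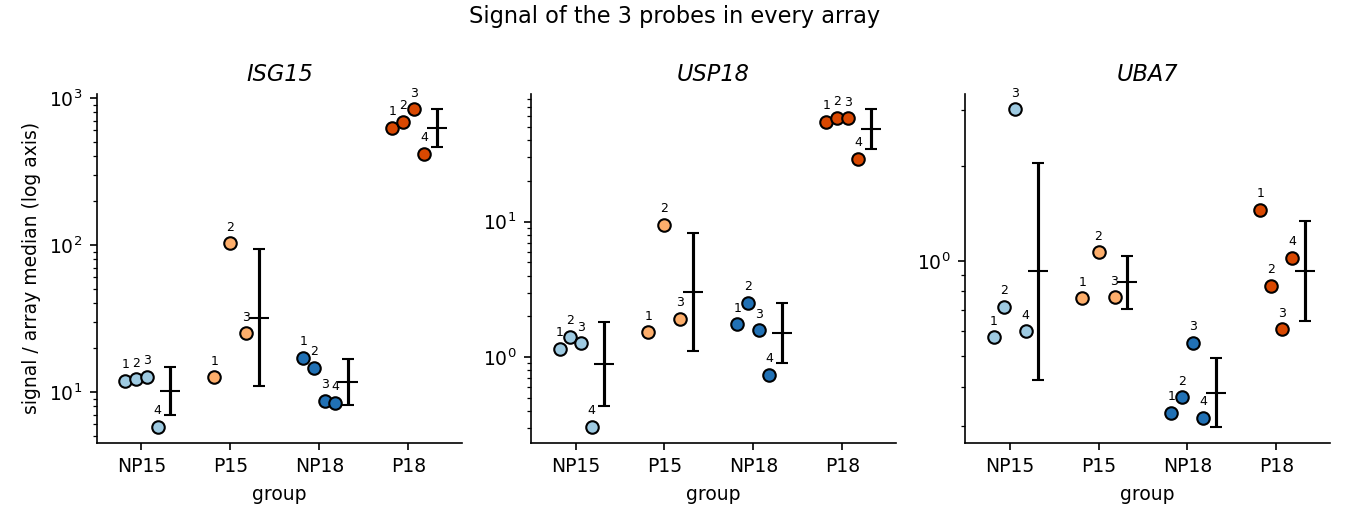
Signal of the probes of ISG15, USP18, and UBA7 in each array, in array medians on a log axis, by group (NP15, NP18, and P18 with 4 arrays each, P15 with 3). Points are arrays with their replicate number, and the bar beside them is the mean ± SD on the log2 scale; the P18 arrays stand apart for ISG15 (416 to 834) and USP18 (29.1 to 58.6), whereas for UBA7 they overlap with NP15 and P15.

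On the scale of array medians, the mean level of ISG15 was 10.6 ± 3.26 (SD, n = 4) in NP15, 46.8 ± 48.9 (n = 3) in P15, 12.2 ± 4.30 (n = 4) in NP18, and 641 ± 174 (n = 4) in P18. That of USP18 was 1.04 ± 0.498, 4.32 ± 4.50, 1.65 ± 0.730, and 49.96 ± 14.0, respectively. For both genes the SD in P15 was slightly larger than the mean. The mean level of UBA7 was 1.22 ± 1.19, 0.865 ± 0.173, 0.393 ± 0.108, and 0.977 ± 0.357, respectively. By mean log2 signal, the order was NP15, NP18, P15, and P18 for ISG15 and for USP18. Neighbors in this order overlapped except P15 and P18, which differed by 4.29 for ISG15 and 3.99 for USP18 on the log2 scale. The exact two-sided permutation test gave p = 0.0571 for each, the smallest value that 3 against 4 arrays allow, and 0.171 after adjustment over the 9 neighboring pairs. For UBA7 the order was NP18, P15, NP15, and P18. Only NP18 and P15 did not overlap, with a difference of 1.16 (exact permutation p = 0.0571, adjusted p = 0.171), and the mean log2 levels of NP15 and P18 were 0.0036 apart. The share of all tested probes without overlap was not computed for NP18 against P15 or for P15 against P18.

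On day 15, none of the 3 members was called, and 0.798% of the tested probes were called in either direction. The log2 fold change of P15 over NP15 was 1.65 for ISG15 (SE 0.55, limma adjusted p = 0.188), or 3.14-fold with a 95% confidence interval from 1.39 to 7.11. It was 1.77 for USP18 (SE 0.64, adjusted p = 0.217), or 3.40-fold with an interval from 1.31 to 8.81. These differences leaned on 1 cow. Without P15 replicate 2, the log2 fold change was 0.81 for ISG15 (adjusted p = 0.494) and 0.94 for USP18 (adjusted p = 0.560). For UBA7 the log2 fold change was -0.12 (SE 0.49, adjusted p = 0.938, interval from -1.16 to 0.92), and it was 0.45 without NP15 replicate 3. The exact two-sided permutation test gave p = 0.114 for ISG15, 0.0571 for USP18, and 0.914 for UBA7. Every P15 array exceeded every NP15 array at 5.93% of the tested probes, and USP18 was the 1 member among them.

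Trophoblast and leukocyte signals are given here for the cows of day 15, and their part in the values of the members was not tested. The summed signal of 20 trophoblast probes was 1.69, 2.31, and 2.33 array medians in P15 replicates 1 to 3, and 2.75 to 3.49 in NP15. Much of these sums was PRP2, with a mean of 0.798 in P15 and 2.04 in NP15. Of the 20 trophoblast probes, 10 were not well above background in any P15 array, among them those of interferon tau (IFNT2 and IFN-tau-c1). In NP15 this count was also 10. CDX2 was well above background in 3 P15 arrays and 0 NP15 arrays, TKDP3 in 3 and 1, and PAG8 in 2 and 0. IFNT2 and PRP1 went the other way, with 0 P15 arrays and 1 NP15 array each. The count of PAG8 did not follow its level, because its mean signal was 0.0236 array medians in P15 and 0.0273 in NP15. None of the 15 tested trophoblast probes was called on day 15. The summed signal of 30 leukocyte probes was 39.7, 36.3, and 40.5 in P15 and 33.2 to 68.8 in NP15. The low NP15 replicate 4 and the NP15 replicate 3 with high UBA7 were each on a slide and a scan day of their own, whereas replicates 1 and 2 shared both. The part of slide and scan day in these values was not tested.

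On day 18, ISG15 and USP18 were both called higher in the pregnant group, which is 2 of the 3 members, against 5.75% of the tested probes in either direction. The log2 fold change of P18 over NP18 was 5.74 for ISG15 (SE 0.51, adjusted p = 2.7e-05), or 53.6-fold with a 95% confidence interval from 25.1 to 114. It was 4.99 for USP18 (SE 0.59, adjusted p = 0.00018), or 31.8-fold with an interval from 13.2 to 76.8. Among the 13164 probes, ISG15 ranked 13 and USP18 ranked 25 by log2 fold change. Over all tested probes the median was 0.073, with 5th and 95th percentiles of -1.06 and 1.25. In a limma fit with a block for each scan day, both passed the threshold (adjusted p = 0.0141 for ISG15 and 0.0473 for USP18). This block cannot take an effect of scanning out of the comparison, because NP18 and P18 were each scanned on a day of their own. The log2 fold changes stayed at 5.74 and 4.99. On signals in array medians, the exact permutation test gave p = 0.0286 for each member, which is the smallest value for 4 against 4 arrays.

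UBA7 was not called on day 18. Its log2 fold change was 1.28 (SE 0.45, adjusted p = 0.102), or 2.43-fold with a confidence interval from 1.25 to 4.72. It ranked 632 among the tested probes. In array medians, every P18 array exceeded every NP18 array for all 3 members, and this held for 10.5% of the tested probes. For UBA7 the lack of overlap depended on the scaling. Before scaling, its signal was 247 in P18 replicate 3 and 259 to 462 in NP18. In the authors' log2 values, P18 replicate 3 also lay below NP18 replicate 3 for UBA7. The spread of NP15 entered the limma test of UBA7, because 1 variance was fitted over the 4 groups. Without NP15 replicate 3, the same fold change had an SE of 0.27 and an adjusted p of 0.0134, which passed the threshold. It also passed in limma with array weights (1.20, adjusted p = 0.0228). It did not pass when NP18 and P18 were fitted alone, without either day 15 group (SE 0.30, adjusted p = 0.0528), or with scan day as a block (adjusted p = 0.812). The methods' t-test passed it without adjustment but not after adjustment.

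**Figure D2:**
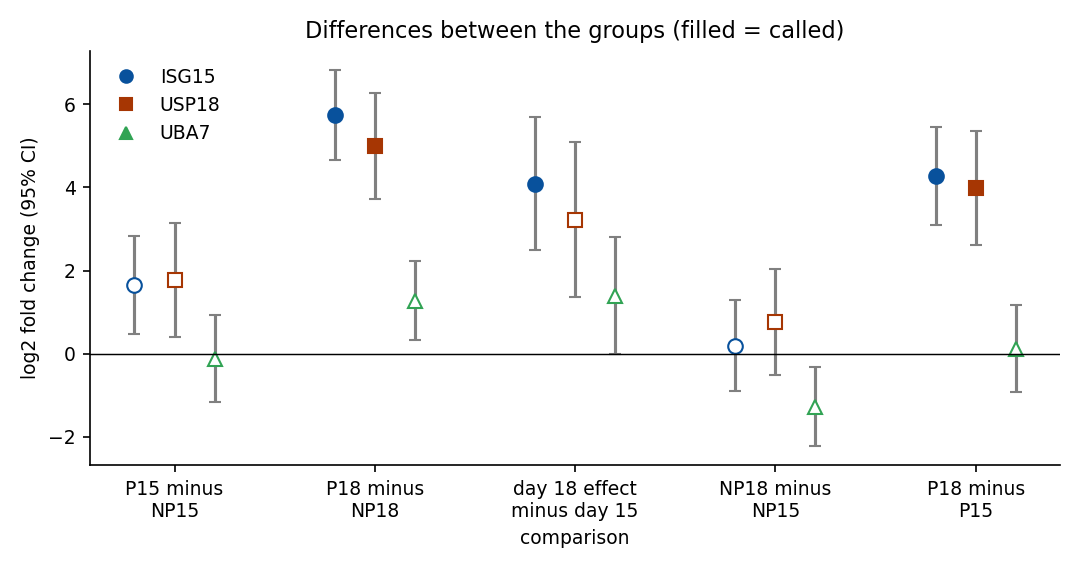
Log2 fold changes of ISG15 (circles), USP18 (squares), and UBA7 (triangles) in the 5 comparisons, with limma's 95% confidence intervals. Filled symbols were called: ISG15 and USP18 in P18 against NP18 and against P15, and ISG15 in the difference of the pregnancy effects.

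The pregnancy effect on day 18 exceeded that on day 15 by 4.09 on the log2 scale for ISG15 (SE 0.75, adjusted p = 0.0143), which was called, and 2.72% of the tested probes were called in this comparison. For USP18 the difference was 3.23 (SE 0.88, adjusted p = 0.0619, confidence interval from 1.35 to 5.10), which missed the threshold. It passed without P15 replicate 2 (4.05, adjusted p = 0.0240) and without NP15 replicate 4 (3.74, adjusted p = 0.0284). For UBA7 it was 1.40 (SE 0.66, adjusted p = 0.264, interval from -0.016 to 2.81). Under the scan day block, the difference for ISG15 was 4.06 and no longer passed (adjusted p = 0.545).

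Between the pregnant groups, ISG15 and USP18 were again the 2 members called, against 11.9% of the tested probes. ISG15 was 19.5-fold higher in P18 than in P15 (log2 fold change of 4.29, SE 0.55, adjusted p = 0.00067) and USP18 was 15.9-fold higher (3.99, SE 0.64, adjusted p = 0.0021). Neither call held under the scan day block (adjusted p = 0.0898 and 0.132, respectively). The log2 fold change of UBA7 was 0.12 (SE 0.49, adjusted p = 0.889, interval from -0.91 to 1.16), and it was -0.17 when arrays were scaled by their 75th percentile.

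Between the non-pregnant groups, no member was called, and 7.16% of the tested probes were. The log2 fold change of NP18 over NP15 was 0.19 for ISG15 (SE 0.51, adjusted p = 0.840) and 0.76 for USP18 (SE 0.59, adjusted p = 0.424). Without NP15 replicate 4 these were -0.08 and 0.25. For UBA7 it was -1.27 (SE 0.45, adjusted p = 0.0789). The highest NP18 array, at 0.551 array medians, lay just below the lowest NP15 array, at 0.574. The share of all tested probes with such a separation was not computed. This difference was -0.71 without NP15 replicate 3 (adjusted p = 0.134). It passed the threshold after normexp background correction, at -1.09 (adjusted p = 0.0476).

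Log2 differences between 2 probes of the same array are free of the scaling between arrays, and they show whether the members changed by unequal amounts. ISG15 minus USP18 was 3.69 ± 0.18 (SD, n = 4) in P18 and 2.94 ± 0.53 (n = 4) in NP18. The rise of ISG15 on day 18 was thus 0.75 larger than that of USP18 on the log2 scale (SE 0.28), or 1.68-fold. ISG15 minus UBA7 was 9.39 ± 0.83 in P18 and 4.92 ± 0.74 in NP18, a difference of 4.46 (SE 0.56). USP18 minus UBA7 was 5.69 ± 0.80 and 1.98 ± 0.73, respectively, a difference of 3.71 (SE 0.54). Each of the 3 differences had an exact two-sided permutation p of 0.0286, also after adjustment over the 3 pairs. No P18 array overlapped with an NP18 array in any of them. For ISG15 minus USP18 the gap was very small, with the lowest P18 array, at 3.52, just above the highest NP18 array. All P18 values of this pair (3.52 to 3.85) also lay within the range of NP15 (3.11 to 4.24). The difference of 0.75 thus holds against NP18 only. The share of other probe pairs with such a separation was not computed. On day 15 the corresponding difference was -0.11 for ISG15 minus USP18 (SE 0.32, exact permutation p = 0.914), so ISG15 and USP18 were not seen to differ in their change there. It was 1.77 for ISG15 minus UBA7 (SE 0.90) and 1.88 for USP18 minus UBA7 (SE 0.91), with exact permutation p of 0.171 and 0.114, both 0.257 after adjustment over the 3 pairs.

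**Figure D3:**
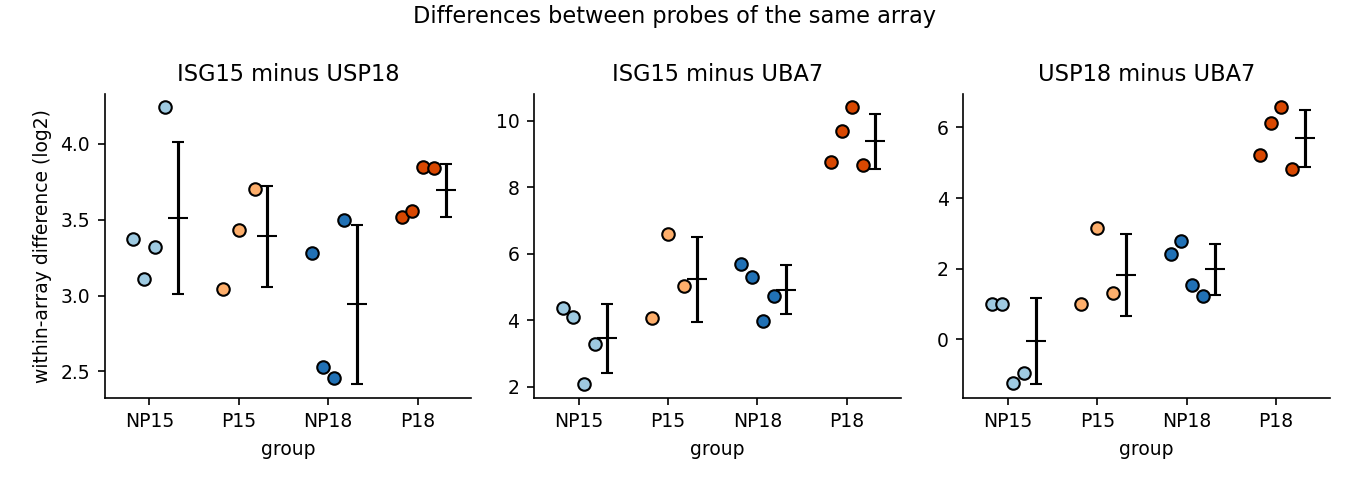
Within-array log2 differences between the probes of 2 members, by group, with points for arrays and bars for the mean ± SD. P18 lies above NP18 without overlap in all 3 panels, by 0.75 on average for ISG15 minus USP18 and by 4.46 and 3.71 for the pairs with UBA7. For ISG15 minus USP18 the nearest arrays of P18 and NP18 almost touch, and P18 lies within the range of NP15.

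Of the 4 P18 arrays, 3 held a strong trophoblast signal and 1 a weak one. The summed signal of the 20 trophoblast probes was 2.82 in P18 replicate 1, within the range of NP18 (2.30 to 3.66), and was 164, 104, and 767 in replicates 2, 3, and 4. In this list, 8 of the 15 tested probes were called higher on day 18 and 1 lower, and 5 of the 20 were not well above background in any P18 array. The largest rise was that of TKDP4, a trophoblast Kunitz domain protein, which had signals of 0.271, 66.6, 45.0, and 307 array medians in P18 (adjusted p = 0.0020). It was well above background in all 4 P18 arrays and in no NP18 array, where its highest signal was 0.0849. Of 11 trophoblast probes that were well above background in some P18 array and in no NP18 array, TKDP4 was the only one so in P18 replicate 1, against 9, 9, and 11 in replicates 2, 3, and 4. ELF5, an epithelial transcription factor of that list, fell by 2.34 (adjusted p = 0.0262). The signal of ISG15 was 626 and that of USP18 was 54.4 in P18 replicate 1, the array with the weak trophoblast signal, which was 36.8 and 21.6 times the highest NP18 array. The P18 array with the highest trophoblast signal, replicate 4, had the lowest ISG15 and USP18. UBA7 was highest in replicate 1.

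**Figure D4:**
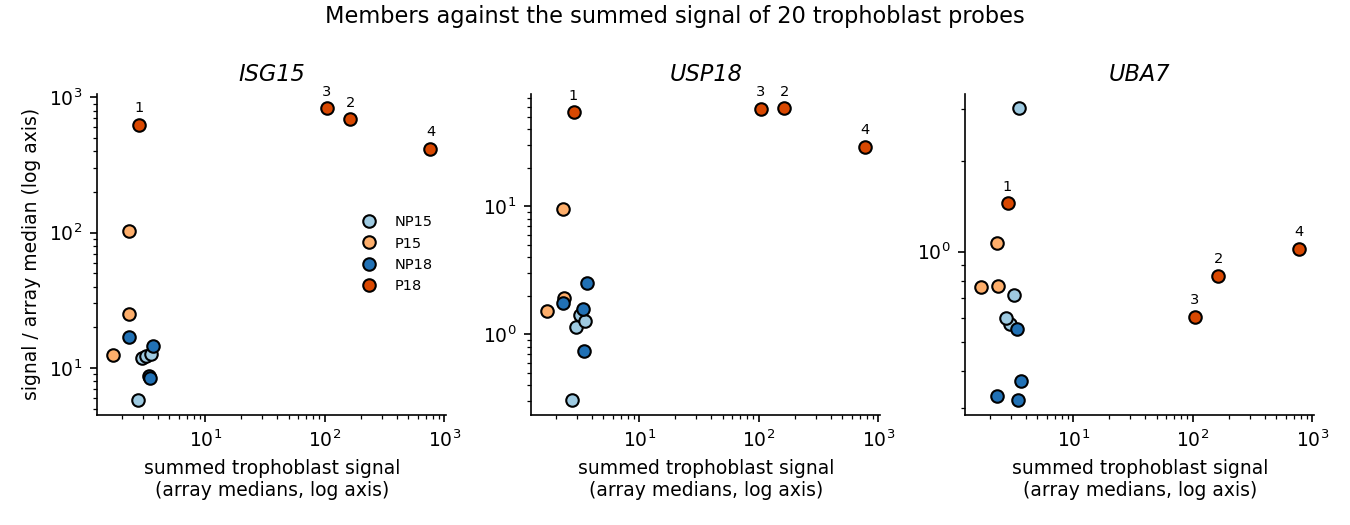
Signal of each member against the summed signal of 20 trophoblast probes in the 15 arrays, both in array medians on log axes, colored by group, with replicate numbers for P18. P18 replicate 1 has a trophoblast sum of 2.82, within the range of NP18, and an ISG15 signal of 626; replicate 4 has a sum of 767 and an ISG15 signal of 416.

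Other marker lists also differed between the groups of day 18. The summed leukocyte signal was 37.9 to 63.4 in NP18 and 52.9 to 298 in P18, highest in replicate 3, which also had the highest ISG15. The 2 probes of GZMB, granzyme B, made up 242 of the 298 in that array. The other 28 leukocyte probes summed to 22.7 to 30.5 in NP18 and to 37.0, 45.4, 55.5, and 37.9 in P18. Of the 29 leukocyte probes tested, 1 was called higher (ITGB2, a leukocyte integrin, by 1.06) and none lower on day 18, with a median log2 fold change of 0.68. In all, 26 of the 29 had a higher mean log2 signal in P18 than in NP18. PTPRC, the general leukocyte antigen, was well above background in 1 of 4 NP18 arrays and in no P18 array. Its log2 fold change on day 18 was -0.20 (adjusted p = 0.888). Of the 5 smooth muscle probes, 3 were called lower, with the largest fall for ACTA2, smooth muscle actin, by 3.90, and a summed signal of 101 to 457 in NP18 and 56.7 to 141 in P18. One stromal probe, COL1A1, a collagen chain, fell by 1.97, and 1 endothelial probe, PECAM1, an adhesion molecule, fell by 1.54. No epithelial probe was called. The part of these shifts in the values of the members was not tested.

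The partners of ISG15 conjugation were thinly covered by the array. Of 7 listed genes, only UBE2E2, an E2 enzyme, had a named probe, and UBE2L6, HERC5, HERC6, TRIM25, ARIH1, and UBE2E1 are not analyzed here. The signal of UBE2E2 was 2.86 to 3.76 in NP15, 3.18 to 3.97 in P15, 2.67 to 4.15 in NP18, and 3.04 to 3.82 in P18. Its log2 fold change was 0.08 on day 15 (adjusted p = 0.906) and -0.04 on day 18 (adjusted p = 0.935). Of 9 other activating enzymes, UBA6 and UBA1, which both activate ubiquitin, had a probe, and neither was called in any of the 5 comparisons. The day 18 log2 fold change was 0.14 for UBA6 (SE 0.25, adjusted p = 0.774) and -0.93 for UBA1 (SE 0.43, adjusted p = 0.207).

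Of 8 genes of the interferon receptor and of ISGF3 signaling, 4 had a probe. On day 18, 1 was called higher and 1 lower, and the median log2 fold change was 0.22. IRF9, the DNA-binding part of ISGF3, had signals of 14.8, 16.5, 16.8, and 8.86 array medians in NP18 and of 142, 125, 133, and 102 in P18. Its log2 fold change was 3.17 (SE 0.29, adjusted p = 2.8e-05). As with ISG15 and USP18, P18 replicate 4 was the lowest P18 array. IFNAR1 was well above background in 2 of 4 NP18 arrays and in no P18 array. It was called lower, and the difference was at least 1.04-fold (adjusted p = 0.0180). For such a bound, the mean of the group with the stronger signal was divided by that of the weaker group, in which a signal under the lowest one well above background in its array was raised to it. The log2 fold change was -0.25 for IFNAR2 (SE 0.23, adjusted p = 0.538) and 0.69 for SOCS3, a feedback inhibitor of cytokine signaling (SE 0.25, adjusted p = 0.108). SOCS3 was well above background in 1 of 4 NP18 arrays and 3 of 4 P18 arrays. On day 15 none of the 4 genes was called, with log2 fold changes from -0.59 for SOCS3 to 0.46 for IFNAR2. The pregnancy effect on day 18 exceeded that on day 15 by 2.83 for IRF9 (adjusted p = 0.0092).

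**Figure D5:**
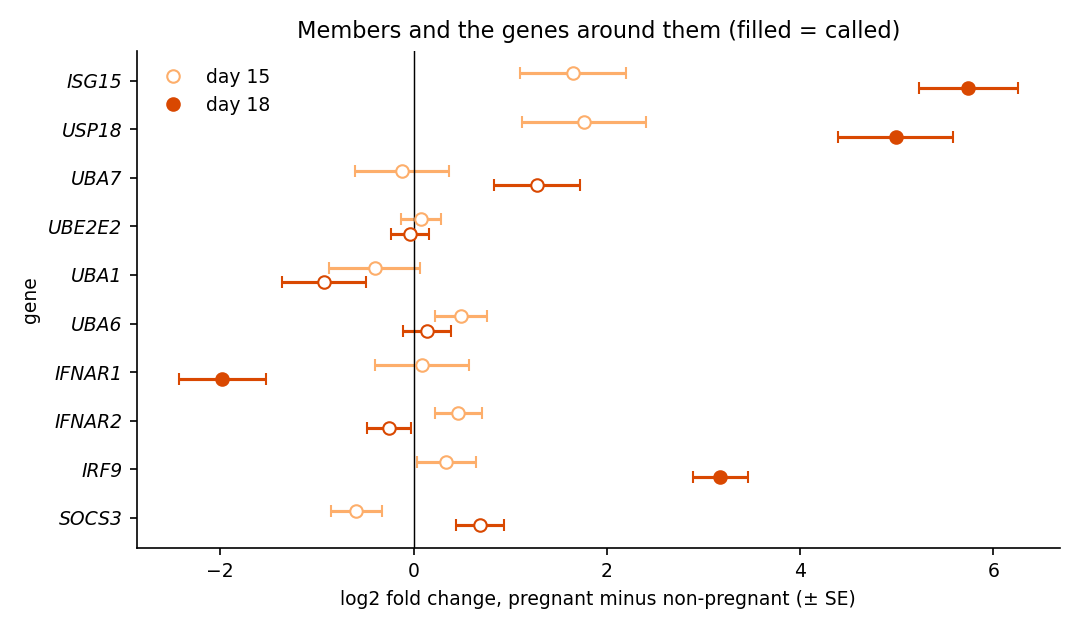
Log2 fold changes between pregnant and non-pregnant cows of day 15 and of day 18 for the 3 members, UBE2E2, UBA1, UBA6, and 4 genes of interferon signaling, with bars for limma's SE. Filled symbols were called, all of them on day 18: ISG15, USP18, and IRF9 higher and IFNAR1 lower, the last not well above background in any P18 array.

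Of 20 other ubiquitin-like modifiers, 15 had a probe, and 1 was called higher on day 18 and none lower, with a median log2 fold change of 0.14. The called gene was GABARAPL2, a modifier of autophagy, which rose by 1.08 (adjusted p = 0.0083). Of the listed genes with names of ubiquitin-specific proteases, 11 had a probe, which includes USP6NL, a gene named after USP6 that is not itself a protease. Of their 12 tested probes, 1 was called higher and 1 lower on day 18, with a median of -0.25. Over all tested probes, 5.75% were called on day 18. CYLD, a deubiquitinase that dampens NF-kappa B signaling, rose by 1.05 (adjusted p = 0.0067). A probe of USP5 fell by 1.51 (adjusted p = 0.0316), whereas the other probe of USP5, with a stronger signal, had -0.31 (adjusted p = 0.477). In neither list was a probe called on day 15.

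ISG15 and USP18 followed each other across the 15 arrays with a Pearson r of 0.985 on the log2 scale (Spearman rho of 0.939). Over the 11 arrays of the other groups r was 0.909, and over the deviations of all 15 arrays from their group means it was 0.899. With UBA7, r was 0.329 for ISG15 and 0.309 for USP18 over 15 arrays, and 0.268 and 0.182 over the 11. These are descriptions of arrays that share groups and scaling.

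Among 6409 other probes with a gene symbol, those most like ISG15 over the 15 arrays were MX1, IFIT5, IFIT3, RIGI, and RSAD2, with r from 0.974 to 0.986. MX1 encodes an antiviral GTPase, the IFIT proteins act against viral RNA, RIGI is a sensor of viral RNA, and RSAD2 (viperin) limits viral replication. Their log2 fold changes on day 18 were from 2.86 for IFIT5 to 5.46 for RSAD2, and on day 15 they were from 0.76 for RIGI to 1.20 for IFIT3. The probes most like USP18 were OAS1X, SHFL, MX1, GBP4, and IFIT3, with r from 0.967 to 0.970. OAS1X is an oligoadenylate synthetase, SHFL restricts the replication of viruses, and GBP4 is a guanylate-binding protein. SHFL had a log2 fold change of 1.33 on day 18 (adjusted p = 0.0014), much smaller than the 4.99 of USP18. Without the P18 arrays, r with the member was 0.796 to 0.891 for the 5 probes most like ISG15 and 0.784 to 0.861 for those most like USP18.

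The probes most like UBA7 were QRFP, TRMT11, HTR1B, RPS14, and P2RY2, with r from 0.786 to 0.816. They encode a neuropeptide, a tRNA methyltransferase, a serotonin receptor, a ribosomal protein, and a nucleotide receptor, respectively. None was called on day 18, with log2 fold changes from 0.44 to 0.99. QRFP was well above background in 4 arrays, HTR1B in 7, P2RY2 in 10, TRMT11 in 12, and RPS14 in all 15. No gene was shared with the lists of ISG15 and USP18.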

How the data were processed

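The authors hybridized Cy3-labeled RNA of 15 cows to one-color arrays, and their Agilent Feature Extraction 9.5 software gave each spot a processed intensity on a linear scale, with the background removed. A second deposited file holds the authors' log2 values, which equalled the log2 intensity minus 1 constant per array, close to the 75th percentile, and it served as an alternative. Here, log2 was taken of the intensity over the array median, without outlier-flagged spots.

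Limma 3.58.1 in R 4.3.3 fitted 1 mean per group over all 15 arrays to the 13164 probes that 3 or more arrays showed well above background. Calls needed an adjusted p (Benjamini-Hochberg) below 0.05 and more than a 2-fold change. Exact permutation tests were run with scipy 1.17.1 on mean log2 values. The fit was tested on simulated data without effects of slide or scan day, in which 200 probes were changed. At a change of 1.5 on the log2 scale, it called 48% of them on day 15, 57.5% on day 18, and 20.5% in the difference of the effects. At 2.5 these shares were 81, 92.5, and 73%. Changes of about the size seen for ISG15 and USP18 on day 15 were thus often missed. Each array was of 1 cow, and precision is limited by having 3 or 4 arrays per group.

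Symbols were read from the array files or taken from the RefSeq table, where 2514 probes matched by their transcript. The named genes were the members, the genes of conjugation, receptor, and ISGF3 lists, the largest called rise and fall on day 18 in each other list, and the 5 probes most like each member by Pearson r. The members and the lists were chosen with earlier results of these data known. A listed gene and the sequence of 1 probe are not reported here. Alternatives were other scalings, background corrections and filters, saturated spots as missing, array weights, 2 groups alone, slide, scan day, or replicate number as blocks, the methods' t-test, and leaving out each array.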

Additional observations from a re-analysis of the deposited data

Results flagged for a closer look

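In 4 of the 9 sets of 4 arrays (3 genes in 3 groups), 1 array lay far from the rest of its group on the log2 scale. Chance gives about 1 in 20 such groups, but the 9 sets are not independent, because the 3 genes were read on the same arrays. The count is therefore given as a description only. NP15 replicate 4 was far below the other NP15 arrays for ISG15, at 5.77 array medians, and for USP18, at 0.306. NP15 replicate 3 was far above them for UBA7, at 3.01. P18 replicate 4 was far below the other P18 arrays for USP18, at 29.1, and was also the lowest for ISG15, at 416.

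The pregnancy effect on ISG15 differed between the days by 4.09 on the log2 scale, by limma's interaction term (adjusted p = 0.0143). It was higher in 4 of 4 P18 arrays than in every NP18 array, and in 2 of 3 P15 arrays than in every NP15 array.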

How the results depend on the processing

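The day 18 calls of ISG15 (log2 fold change of 5.64 to 5.79) and USP18 (4.72 to 4.99) passed the threshold under each of 14 alternatives and without each array in turn (5.59 to 5.94 and 4.65 to 5.24). On day 15 neither passed in any, with 0.96 to 1.77 and 0.90 to 1.86, or 0.81 to 2.32 and 0.94 to 2.26 without 1 array. UBA7 passed on day 18 with array weights (1.20) and by the methods' t-test without adjustment (1.28), and ran from 1.06 to 1.48 without 1 array. On day 15 it ran from -0.35 to 0.45. The difference of the effects was 3.42 to 4.94 for ISG15, 2.73 to 4.05 for USP18, and 0.83 to 1.63 for UBA7 without 1 array. For USP18 it passed with normexp (3.18), on probes well above background in all 15 arrays (3.23), and with array weights (3.82). For NP18 minus NP15, leaving out 1 array gave -0.077 to 0.35 for ISG15, 0.25 to 1.1 for USP18, and -1.51 to -0.71 for UBA7, which passed after normexp (-1.09). For P18 minus P15 it gave 3.62 to 5.13, 3.49 to 4.81, and -0.091 to 0.33, and UBA7 changed sign under the 75th percentile (-0.17) and in the authors' log2 table (-0.17).

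Under the scan day block, ISG15 lost the difference of the effects (4.06) and P18 minus P15 (4.29), and USP18 lost P18 minus P15 (3.99). The block cannot separate scan day from group, because arrays of different groups never shared a scan day, and the cause was not tested. With the replicate block, which assumes that arrays of the same number are paired, the difference of the effects for USP18 was 3.59 and passed (adjusted p = 0.0207), and no other call changed. The numbers are shared by different cows, and the correlation of deviations within a number was -0.125 to 0.303. Without 1 array the within-array differences were 0.59 to 0.94 (ISG15 minus USP18), 4.12 to 4.72 (ISG15 minus UBA7), and 3.42 to 4.00 (USP18 minus UBA7), where an exact permutation p cannot go below 0.0571. No member had another probe, so the alternative of another probe was not run.

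The counts behind the background depended more on the processing. The analysis as reported called 105 probes on day 15, 757 on day 18, 358 in the difference of the effects, 942 between NP18 and NP15, and 1566 between P18 and P15. In the same order, the scan day block called 0, 49, 0, 54, and 0 (692, 888, 844, 1732, and 1726 at an unadjusted p under 0.05), and leaving out 1 array gave 4 to 344, 428 to 1043, 59 to 549, 616 to 1565, and 737 to 1730. The methods' t-test with adjustment called 0 on day 15 (1681 at an unadjusted p under 0.05), 188 on day 18, and 137 between NP18 and NP15. The replicate block called 8 on day 15 and 192 in the difference of the effects. Normexp called 1384 in the difference of the effects, and no filter called 1744 and 3080 between the days. Scaling by the 75th percentile moved the share of higher calls from 43.8 to 62.4% on day 15, from 76.0 to 57.1% in the difference of the effects, from 40.4 to 25.6% between NP18 and NP15, and from 63.7 to 31.2% between P18 and P15, where the median of all probes moved by -0.30. Quantile normalization moved the share on day 18 from 63.5 to 49.1%.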
